A study of Mus musculus with 6 samples.

Results

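The hypoxia and glycolysis genes described here are 38 mouse genes taken by name from the count tables, out of 23284 genes listed there. They comprise the hypoxia-inducible factors and their oxygen sensors, the glucose and lactate transporters, the enzymes of glycolysis from hexokinase to lactate dehydrogenase, the regulators of glycolytic flux, and further genes known to be induced by low oxygen. Of the 38, 36 passed the filter on low counts and were tested among 13390 genes. The other 2, Adm (a secreted vasodilator peptide) and Car9 (a surface carbonic anhydrase), did not pass. Adm had 6, 7 and 10 reads with hairpins 1, 2 and 5, against 13, 4 and 5 reads in control replicates 1 to 3. Car9 had 4, 1 and 1 reads with the hairpins, against 0, 2 and 2 reads in the controls. Neither was used further.

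Cells sense oxygen through prolyl hydroxylases of the Egln family, which mark the alpha subunits of hypoxia-inducible factor (HIF) for destruction while oxygen is present. When oxygen falls, the alpha subunit persists, pairs with Arnt, binds short DNA elements near its target genes and recruits the coactivators CREB-binding protein (encoded by Crebbp) and p300 (encoded by Ep300). Its best-known targets raise glucose uptake, glycolysis and lactate export, and glycolysis is commonly raised in fast-growing tumours.

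The libraries were made from preSC cells, a mouse line that the labels call a precursor of small cell lung cancer (SCLC), each infected with a lentiviral pLKO.1-TRC vector expressing a short hairpin RNA or none. The knockdown group held 3 libraries, 1 for each of 3 Crebbp hairpins numbered 1, 2 and 5, so that within it the hairpin and the library cannot be told apart. The control group also held 3 libraries. Control replicates 1 and 2 carried the vector without a hairpin (shEmpty), and control replicate 3 carried a hairpin labelled non-silencing (shNS). No label says that the libraries came from separate cultures, so the spread behind each p-value is that of these libraries alone and may be technical. In RNA from whole cultures, a change in every cell and a change in the share of cells cannot be told apart.

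Reads in genes ranged between 13622020 and 14651158 in the knockdown libraries and between 13687770 and 19804949 in the controls. Crebbp was at 46.2, 58.3 and 48.9 CPM (read counts scaled to the TMM-normalised size of the library) with hairpins 1, 2 and 5, against 66.2, 69.6 and 69.4 CPM in control replicates 1 to 3. All 3 knockdown values lay below all controls, with log2 fold changes of -0.57 ± 0.10, -0.23 ± 0.09 and -0.48 ± 0.09 (SE) and edgeR adjusted p-values of 0.0063, 0.122 and 0.0357. Ep300 passed the threshold with no hairpin. The 10 neuroendocrine marker genes, which are characteristic of SCLC, were all expressed, with a summed level of 6256 to 8075 CPM in knockdown libraries and 7542 to 8526 CPM in controls. The 7 fibroblast markers summed to 13.3, 35.5 and 63.3 CPM for hairpins 1, 2 and 5, against 45.2, 40.1 and 37.7 CPM for the controls, nearly all of it Dcn, and Col3a1 was at 0 throughout. The 7 alveolar and club cell markers summed to 4.56 to 9.55 CPM in knockdown libraries and 9.27 to 10.2 CPM in controls, with Scgb3a2 at 0. Endothelial and blood cell markers summed to 4.41 CPM or less in knockdown libraries and 5.55 CPM or less in controls, and Emcn, Hba-a1 and Hbb-b1 were at 0. Reads outside annotated genes made up 14.8%, 18.1% and 15.8% of the counts for hairpins 1, 2 and 5, against 16.8%, 16.9% and 17.0% for the controls. The part of these measures in the results below was not tested.

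Promoters of 4 genes that later set the hairpins apart, and of Pgam1, are shown here because they carry the core HIF element. The windows run from 250 bases before to 50 bases after the start of transcription in RefSeq's annotation of mouse build GRCm38.p6, printed 5′ to 3′ on the strand of the gene. Capitals mark ACGTG and GCGTG read on either strand (so CACGT and CACGC are marked too), and overlapping matches run together. The first 4 genes (the glucose transporter Slc2a1, lactate dehydrogenase Ldha, the mitophagy receptor Bnip3 and the ankyrin repeat gene Ankrd37) were called higher with hairpin 1 and lower with hairpin 2, meaning an adjusted p under 0.05 in edgeR's test of that library against the controls. Pgam1, a glycolytic enzyme, was called with neither.
Slc2a1, chr4:119108495-119108794, plus strand: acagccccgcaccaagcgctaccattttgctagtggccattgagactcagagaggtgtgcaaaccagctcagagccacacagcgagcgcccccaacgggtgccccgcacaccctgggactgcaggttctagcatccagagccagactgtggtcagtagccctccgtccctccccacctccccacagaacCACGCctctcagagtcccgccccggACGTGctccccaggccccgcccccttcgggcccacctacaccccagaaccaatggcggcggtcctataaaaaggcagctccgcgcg
Ldha, chr7:46845554-46845853, plus strand: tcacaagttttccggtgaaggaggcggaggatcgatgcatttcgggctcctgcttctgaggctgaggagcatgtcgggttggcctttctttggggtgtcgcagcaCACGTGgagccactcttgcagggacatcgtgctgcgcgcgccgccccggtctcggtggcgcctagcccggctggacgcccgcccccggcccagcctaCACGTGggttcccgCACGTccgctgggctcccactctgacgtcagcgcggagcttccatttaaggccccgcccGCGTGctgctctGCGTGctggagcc
Bnip3, chr7:138909457-138909756, minus strand: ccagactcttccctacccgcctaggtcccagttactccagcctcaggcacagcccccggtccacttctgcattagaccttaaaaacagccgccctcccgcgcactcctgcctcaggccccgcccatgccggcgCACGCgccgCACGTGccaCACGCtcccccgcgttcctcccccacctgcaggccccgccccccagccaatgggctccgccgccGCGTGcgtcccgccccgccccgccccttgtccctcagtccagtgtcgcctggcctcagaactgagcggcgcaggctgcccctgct
Ankrd37, chr8:45999801-46000100, minus strand: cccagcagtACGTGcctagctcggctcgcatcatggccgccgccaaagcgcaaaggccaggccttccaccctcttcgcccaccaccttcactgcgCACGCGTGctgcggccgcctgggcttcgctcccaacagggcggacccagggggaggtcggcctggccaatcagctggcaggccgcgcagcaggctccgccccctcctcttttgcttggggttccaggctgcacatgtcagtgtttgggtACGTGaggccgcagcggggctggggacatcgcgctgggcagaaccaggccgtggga
Pgam1, chr19:41911621-41911920, plus strand: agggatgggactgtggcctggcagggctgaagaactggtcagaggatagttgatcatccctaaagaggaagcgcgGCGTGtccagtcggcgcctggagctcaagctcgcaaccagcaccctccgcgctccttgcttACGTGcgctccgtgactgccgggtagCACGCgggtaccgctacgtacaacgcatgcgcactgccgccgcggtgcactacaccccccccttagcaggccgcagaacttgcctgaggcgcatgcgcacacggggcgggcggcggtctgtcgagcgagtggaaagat

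The 5 windows were shown because they carry the element, so its presence in each, Pgam1 included, was fixed in advance and is no result. Eno1, also called higher with hairpin 1 and lower with hairpin 2, held GCGTG in its windows but is not printed. Of the 38 genes, 35 had an entry in the promoter table (not Epas1, Slc2a3 or Ndrg1), and 32 of these 35 (91.4%) held ACGTG or GCGTG in at least 1 window, against 46.7% of all genes in the table. Member windows were also richer in G and C, with a median of 62.3%, against 52.7% over all windows. The element was held by 19 of 21 genes called higher with hairpin 1 and by 11 of 12 tested genes not called with that hairpin. Nearly all of these genes held it, so the counts cannot show whether it relates to the calls, which was not tested. Counted by window, ACGTG or GCGTG was in 77.4% of member windows and 43.8% of all windows. Members had 53 windows for 35 genes, against 32851 for 27025 in the table, and more windows give more room for a match. The E-box CACGTG, which contains ACGTG and is read by other factors as well, was in 9.43% of member windows and 7.15% of all windows. Counted by gene, the E-box was in 14.3% of members and 8.09% of all genes. A match to 5 letters is a description of the window and not a binding site.

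Per kilobase of exon, the level of these genes in the control libraries spanned a wide range. Pkm2 (pyruvate kinase, the last step to pyruvate) was at 522 ± 12.04 RPKM (TMM-normalised CPM per kilobase of exon; SD, n = 3 controls). Gapdh (glyceraldehyde phosphate dehydrogenase) was at 354 ± 29.4 RPKM, Tpi1 (triose phosphate isomerase) at 250 ± 13.9 RPKM and Ldha at 241 ± 20.2 RPKM. Hk1, the housekeeping hexokinase, was at 36.3 ± 1.18 RPKM, while Hk2, the inducible hexokinase, was at 0.657 ± 0.277 RPKM. Enzymes of the lower steps of glycolysis thus had the highest levels of these genes in control preSC cells, and Hk2 was far below Hk1.

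Taken as 1 group of 3, the knockdown libraries showed no called difference from the controls in any of the 36 genes. With edgeR's quasi-likelihood test and adjustment over all tested genes, 0 of 36 passed an adjusted p of 0.05, where 1.25% of all tested genes did (0.276% higher and 0.978% lower). At an unadjusted p under 0.05 there were 4 (Epas1, Pfkm, Hk1 and Hk2). With another normalization (RLE) there were also 4, where 2201 of all 13390 tested genes passed that level. DESeq2 called 1 (Pfkm), where it called 730 of all 13390. Neither share of the 36 exceeded that of all tested genes. The median log2 fold change was 0.15, against 0.01 over all tested genes, with 28 values above 0 and 8 below. Of all tested genes, 53.2% were above 0. The hairpins were not alike within this group. Each hairpin library was therefore set against the 3 controls in a fit with 4 groups. Its only replicates were the controls, and each single hairpin library was assumed to vary as they do. edgeR also drew the spread of each gene towards a trend over all tested genes. A call in that fit compares 1 library with the controls.

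In the hairpin 1 library, 24 of the 36 genes were called higher and 0 lower, where 8.61% of all tested genes were called higher and 9.32% lower. The genes were chosen with earlier results of these data known, so the shares of all tested genes are given for scale and an excess was not tested. Hairpin 2 gave 3 calls higher (8.48% of all tested genes) and 7 lower (9.03%). Hairpin 5 gave no call, where 2.75% of all tested genes were called (0.866% higher and 1.88% lower). Of its 36 values 32 were below 0 and 4 above, where 50.2% of all tested genes were above 0. DESeq2 called 18 genes with hairpin 1 and 8 with hairpin 2, where it called 9.98% and 10.1% of all tested genes, and 1 gene (Tpi1, lower) with hairpin 5. The calls not made by DESeq2 were Epas1, Slc2a3, Pfkm, Aldoc, Ankrd37 and Mxi1 with hairpin 1, and Pfkm and Eno2 with hairpin 2. Median log2 fold changes over the 36 genes were 0.64, -0.07 and -0.19 with hairpins 1, 2 and 5, against 0.00 over all tested genes with each hairpin. A direct test of differences among the 3 hairpin libraries called 25 of 36 genes, where 14% of all tested genes were called.

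**Figure D1:**
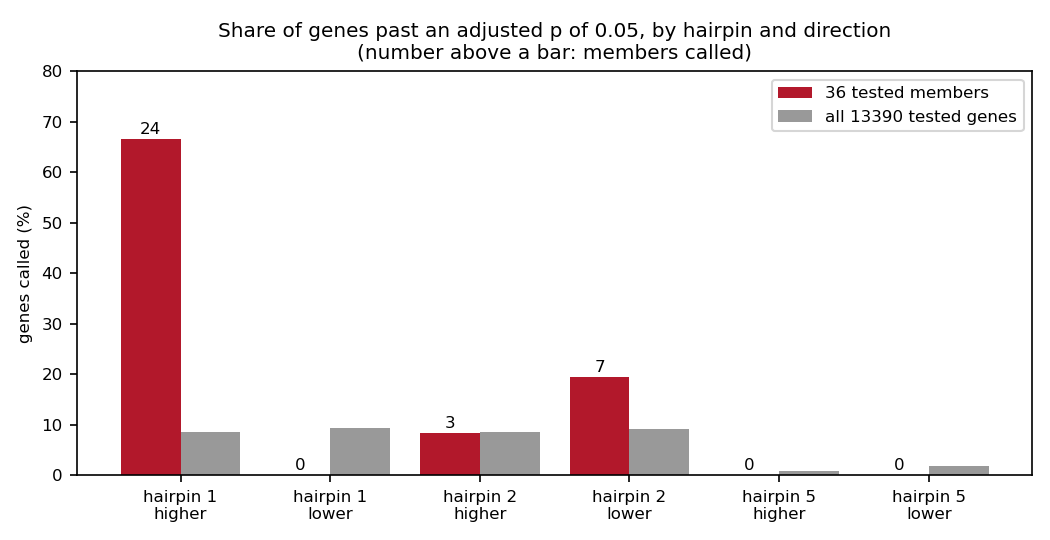
Share of genes (percent, vertical axis) past an adjusted p of 0.05 in edgeR's quasi-likelihood test, for each hairpin library against the 3 controls and each direction; red bars stand for the 36 tested hypoxia and glycolysis genes, grey bars for all 13390 tested genes, and the number above a red bar is the count of member genes. The red bar for higher with hairpin 1 (24 genes) stands far above its grey bar (8.61%), the one for lower with hairpin 2 (7 genes) stands above 9.03%, and hairpin 5 has none. Member genes were chosen with earlier results of these data known.

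These call counts moved with the choice of controls. Without control replicate 2 the counts were 13 with hairpin 1 (6.79% of all tested genes were then called in either direction) and 4 with hairpin 2 (6.87%), and 14 genes differed among hairpins (4.33%). Hairpin 5 had 15 genes called lower without control replicate 1 (12.6% of all tested genes called) and 7 without control replicate 3 (14.3%).

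By position, the hairpin 1 library was above all 3 controls in log2 CPM for 32 of 36 genes (38% of all tested genes) and was the highest of the 6 libraries for the same number (25.5%). The hairpin 5 library was below all controls for 23 genes (31.5%), above all controls for 4 (33.2%) and the lowest of all 6 for 16 (14.3%). Hairpin 2 was below all controls for 15 of 36 genes (36.8%) and above all controls for 8 of 36 (38.1%). All 3 hairpin libraries were above all controls for 2 genes, Epas1 and Pfkm (11.4%), and below all controls for 1, Hk1 (11%).

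**Figure D2:**
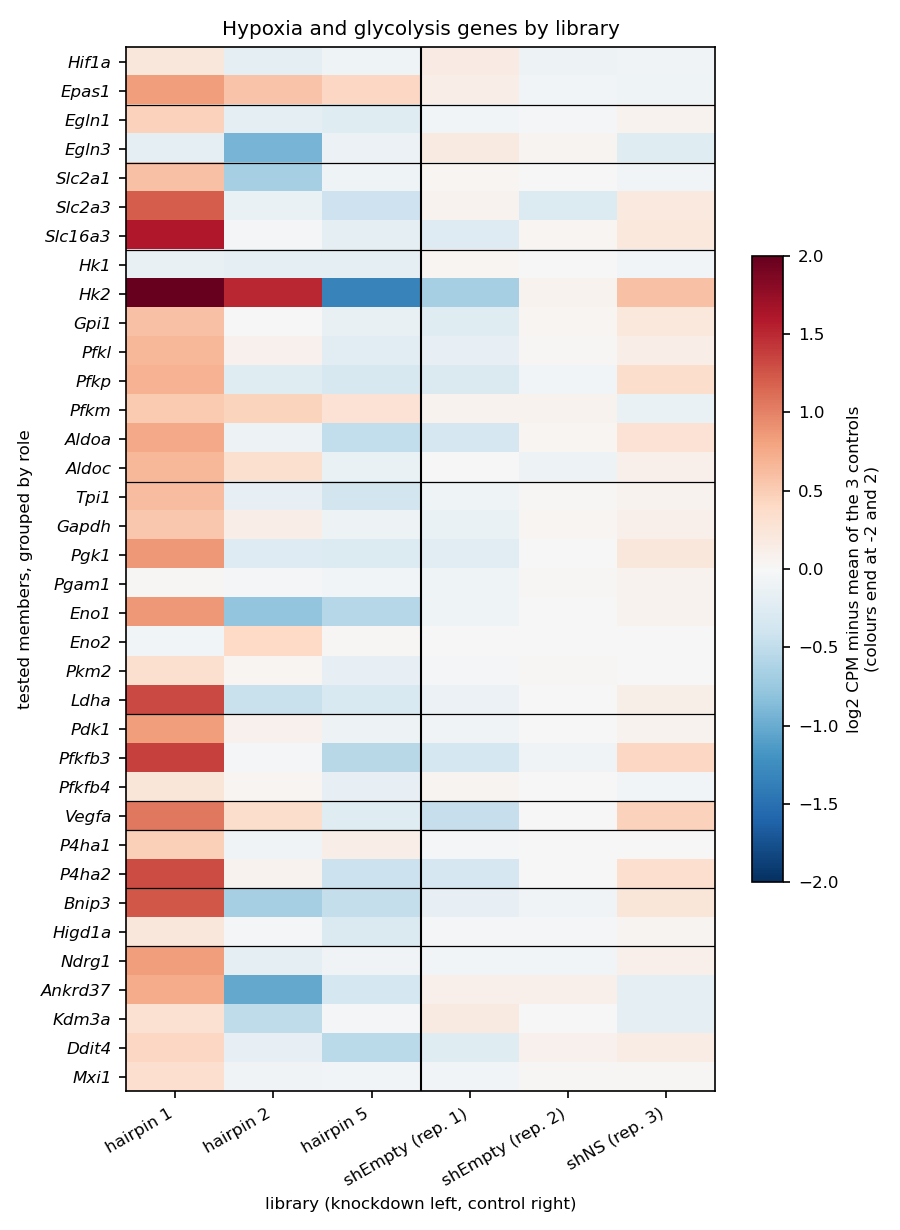
Log2 CPM of each of the 36 tested genes (rows, grouped by role) minus the mean of the 3 controls, in each library (columns, knockdown libraries left and controls right); red is above and blue below the control mean, and colours end at -2 and 2. The hairpin 1 column is red in most rows, and the hairpin 2 and hairpin 5 columns are mixed to pale blue, with Hk2 the strongest value in the hairpin 1 column.

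Among the factors themselves, Hif1a, the broadly expressed alpha subunit, was at 253, 192 and 205 CPM with hairpins 1, 2 and 5, against 243, 203 and 207 CPM in control replicates 1 to 3. The groups overlapped and no hairpin was called. Epas1, which encodes the related alpha subunit HIF-2alpha, was at 9.92, 8.26 and 7.35 CPM with the hairpins, against 6.03, 5.30 and 5.18 CPM in the controls. Every hairpin value exceeded every control. The log2 fold change was 0.84 ± 0.19 (SE) with hairpin 1 (edgeR adjusted p = 0.0202) and 0.62 ± 0.19 over all 3 hairpins, which did not pass (adjusted p = 0.153).

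The oxygen sensors differed between hairpins. Egln1, the main prolyl hydroxylase, was at 134.6, 86.9 and 83.4 CPM with hairpins 1, 2 and 5, against 94.6, 97.0 and 103 CPM in the controls. It was called higher with hairpin 1 (log2 fold change 0.45 ± 0.09, edgeR adjusted p = 0.00959), and hairpins 2 and 5 lay below every control without passing. Egln3, a prolyl hydroxylase whose own gene is induced by HIF, was at 67.6, 40.3 and 71.4 CPM with the hairpins, against 87.7, 80.3 and 65.6 CPM in the controls. Hairpin 2 alone was below all controls and was called lower (-0.95 ± 0.16, edgeR adjusted p = 0.00662).

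All 3 transporters were called higher with hairpin 1. Slc16a3, the lactate exporter MCT4, was at 254, 81.6 and 73.5 CPM with hairpins 1, 2 and 5, against 70.4, 86.5 and 97.4 CPM in control replicates 1 to 3. Hairpin 1 stood 3.01-fold above the controls (edgeR adjusted p = 0.00113), while hairpins 2 and 5 fell within the control range. Slc2a1, the glucose transporter GLUT1, was at 111.7, 47.2 and 70.1 CPM with the hairpins, against 77.1, 75.3 and 71.7 CPM in the controls. Hairpin 1 was above the controls (log2 fold change 0.58 ± 0.09, edgeR adjusted p = 0.00367) and hairpin 2 below them (-0.66 ± 0.09, adjusted p = 0.00288). Slc2a3, the glucose transporter GLUT3, was low at 6.32, 2.42 and 1.97 CPM with the hairpins, against 2.81, 2.19 and 3.07 CPM in the controls, and was called with hairpin 1 (1.23 ± 0.27, edgeR adjusted p = 0.0156).

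Of the 16 glycolytic enzymes, 11 were called higher with hairpin 1 (8.61% of all tested genes) and 0 lower (9.32%). Hairpin 2 had 3 higher (8.48%) and 2 lower (9.03%), the latter near the share of all tested genes. Hk2 varied most. It was at 36.8, 10.1 and 1.29 CPM with hairpins 1, 2 and 5, against 2.15, 3.66 and 5.26 CPM in control replicates 1 to 3. The 3 hairpins thus stood above, above and below the whole control range. Hairpin 1 was 10.3-fold above the controls (log2 fold change 3.36 ± 0.31, edgeR adjusted p = 0.00113) and hairpin 2 was 2.83-fold above them (adjusted p = 0.0302). Hairpin 5 did not pass (-1.46 ± 0.56, adjusted p = 0.216). Hk1 was at 158, 155 and 156 CPM with the hairpins, against 181, 177 and 170 CPM in the controls. It was lower with every hairpin than in every control, by a pooled log2 difference of -0.17 ± 0.07, which did not pass (unadjusted p = 0.0428, edgeR adjusted p = 0.285). Even in the hairpin 1 library, Hk2 at 6.56 RPKM remained below Hk1 at 32.6 RPKM.

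**Figure D3:**
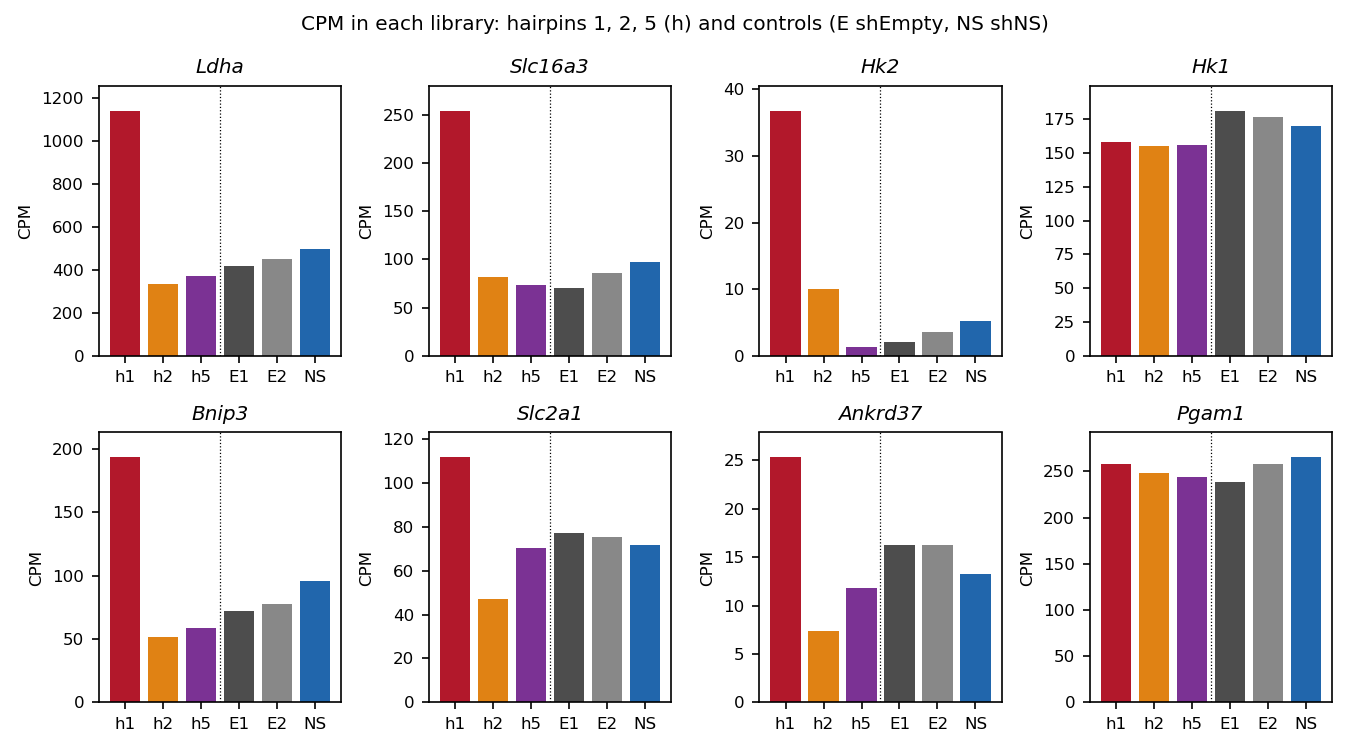
CPM (vertical axis, from 0) of 8 genes in each library, with hairpins 1, 2 and 5 (h1, h2, h5) left of the dotted line and the controls (E1 and E2 for shEmpty, NS for shNS) right of it; each bar is 1 library. Ldha, Slc16a3, Hk2, Bnip3, Slc2a1 and Ankrd37 are highest with hairpin 1, Hk1 is slightly lower with all 3 hairpins, and Pgam1 lies between 238 and 266 CPM throughout.

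The other enzymes of the upper pathway were called less uniformly. Pfkm, the muscle-type phosphofructokinase, was at 49.97, 47.6 and 42.5 CPM with hairpins 1, 2 and 5, against 36.4, 36.5 and 31.6 CPM in the controls. Each hairpin exceeded each control, and hairpins 1 (0.52 ± 0.11, edgeR adjusted p = 0.0162) and 2 (0.45 ± 0.11, adjusted p = 0.0297) were called. The pooled difference of 0.42 ± 0.10 had an adjusted p of 0.0985 in edgeR and 0.0283 in DESeq2. Pfkl, the liver-type phosphofructokinase, was at 205, 137 and 112 CPM with the hairpins, against 116, 131 and 142 CPM in the controls, and was called with hairpin 1 (0.67 ± 0.11, edgeR adjusted p = 0.00606). Pfkp, the platelet type, was at 170, 88.8 and 84.3 CPM, against 85.8, 101 and 133 CPM, and was not called. Phosphofructokinase is the committed step of the pathway.

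Gpi1 (glucose phosphate isomerase) and Aldoc (aldolase C) were called higher with hairpin 1, with log2 fold changes of 0.57 ± 0.15 and 0.66 ± 0.15 (edgeR adjusted p = 0.0372 and 0.0174). Aldoa, the main aldolase, was at 468, 257 and 197 CPM with hairpins 1, 2 and 5, against 219, 286 and 339 CPM in control replicates 1 to 3. Hairpin 1 was above every control, yet the controls themselves spread widely and no hairpin was called (hairpin 1, edgeR adjusted p = 0.0733).

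Below aldolase, Ldha, which turns pyruvate into lactate, had the smallest p of these genes with hairpin 1. It was at 1142, 333 and 370 CPM with hairpins 1, 2 and 5, against 420, 453 and 497 CPM in control replicates 1 to 3. Hairpin 1 was above the controls (log2 fold change 1.32 ± 0.09, edgeR adjusted p = 0.000306), hairpin 2 was below them (-0.46 ± 0.10, adjusted p = 0.0186), and hairpin 5 was below every control without passing (adjusted p = 0.153). Eno1, the ubiquitous enolase, followed the same order at 29.0, 9.05 and 10.6 CPM with the hairpins, against 14.9, 15.9 and 16.6 CPM in the controls (hairpin 1, 0.88 ± 0.13, edgeR adjusted p = 0.00417; hairpin 2, -0.80 ± 0.16, adjusted p = 0.012). Its low count is uncertain, since 72.2% of its 50-base stretches also occur in other genes, mostly Eno1b.

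Pgk1 (phosphoglycerate kinase) was at 630, 290 and 286 CPM with hairpins 1, 2 and 5, against 300, 343 and 405 CPM in the controls. Tpi1 was at 675, 393 and 343 CPM, against 414, 450 and 461 CPM. Both were called higher with hairpin 1 (edgeR adjusted p = 0.00774 and 0.00249), and hairpins 2 and 5 lay below every control without a call. Gapdh, often used as a loading control, was at 763, 580 and 494 CPM with the hairpins, against 480, 540 and 566 CPM in the controls, and was called with hairpin 1 (0.53 ± 0.10, edgeR adjusted p = 0.00844). Pkm2 was at 1702, 1388 and 1214 CPM, against 1322, 1381 and 1370 CPM, and was called with hairpin 1 at a smaller size (0.33 ± 0.07, edgeR adjusted p = 0.0143).

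A pair of lower-pathway enzymes did not follow. Pgam1 (phosphoglycerate mutase) was at 258, 248 and 243 CPM with hairpins 1, 2 and 5, against 238, 258 and 266 CPM in the controls, and no hairpin was called. Eno2, the neuronal enolase and a clinical marker of SCLC, was at 51.7, 70.5 and 54.6 CPM with the hairpins, against 53.6, 53.6 and 54.1 CPM in the controls. It was called higher with hairpin 2 (0.39 ± 0.09, edgeR adjusted p = 0.0184), the hairpin with which Eno1 was called lower.

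The regulators of flux rose with hairpin 1 in 2 of 3 cases. Pdk1 encodes a kinase that inhibits pyruvate dehydrogenase. It was at 116, 69.0 and 60.5 CPM with hairpins 1, 2 and 5, against 62.1, 64.6 and 68.7 CPM in control replicates 1 to 3 (hairpin 1, 0.83 ± 0.09, edgeR adjusted p = 0.00117). Pfkfb3, which makes the activator of phosphofructokinase, was at 75.0, 28.4 and 19.7 CPM, against 22.8, 27.6 and 38.6 CPM (1.35 ± 0.25, edgeR adjusted p = 0.0166). For both genes hairpin 1 was above every control and hairpin 5 below every control. Pfkfb4, a related enzyme, was at 11.8, 10.2 and 8.78 CPM, against 10.3, 9.88 and 9.56 CPM, and was not called.

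**Figure D4:**
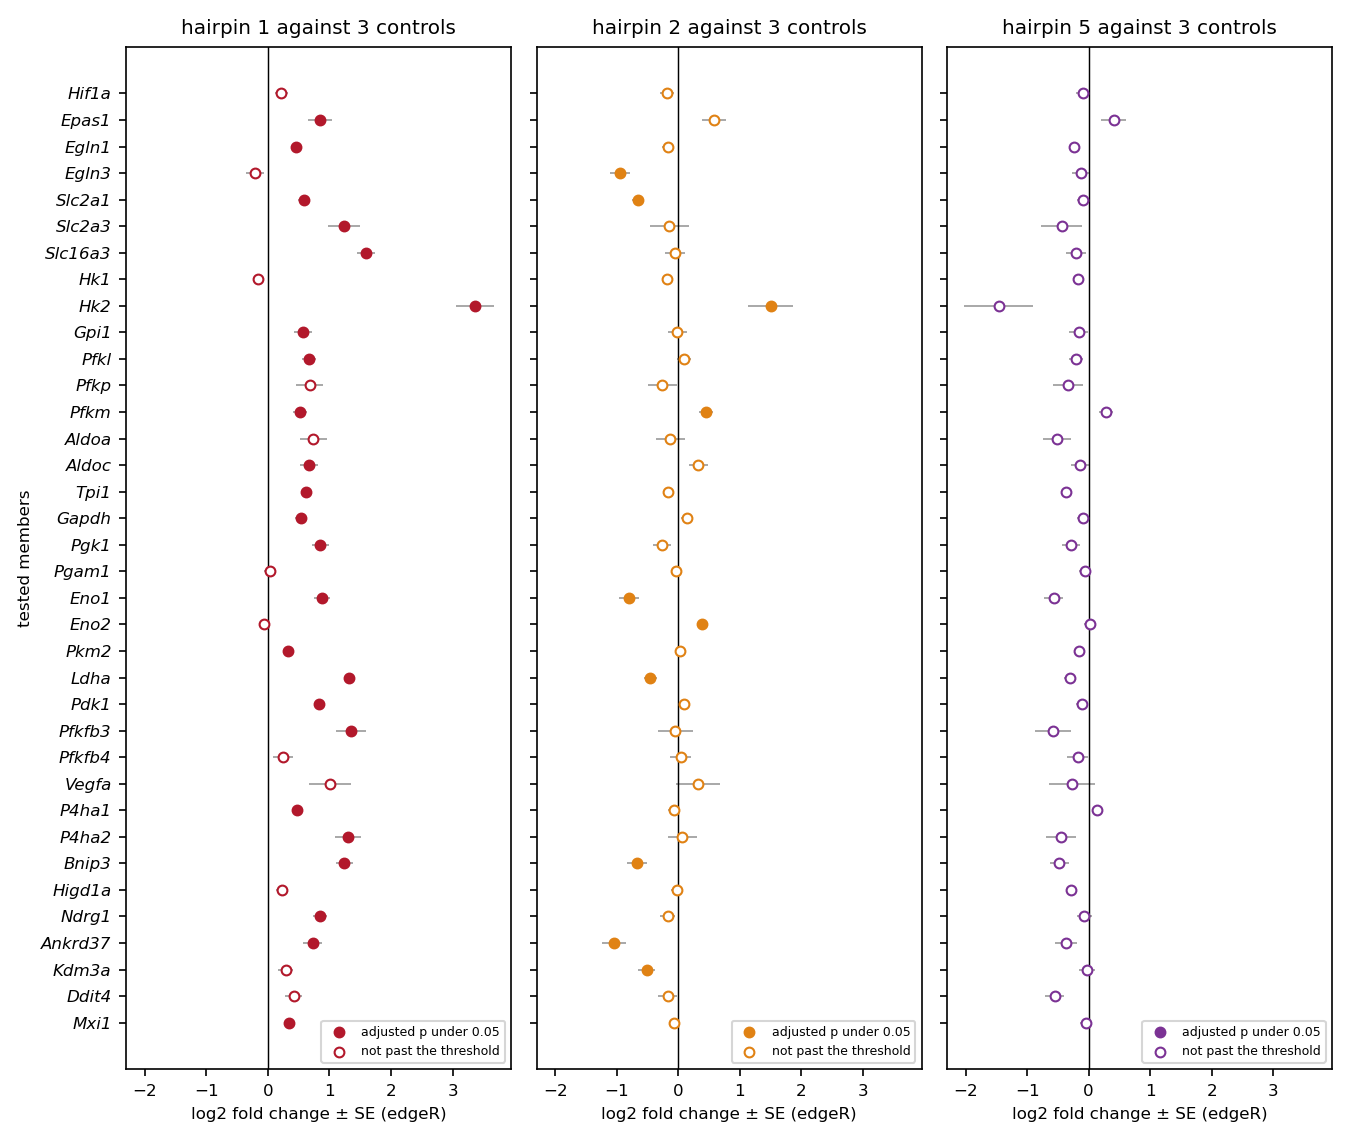
Log2 fold change (horizontal axis, ± SE, edgeR 4-group fit) of each of the 36 tested genes in each hairpin library against the 3 controls; filled points have an adjusted p under 0.05, open points do not. With hairpin 1 the 24 filled points all lie right of 0, with hairpin 2 filled points lie on both sides (3 right, 7 left), and with hairpin 5 all points are open.

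Of the 20 tested genes that are not glycolytic enzymes, 13 were called higher with hairpin 1 (8.61% of all tested genes). With hairpin 2, 5 were called lower (9.03%). These 20 include the transporters and flux regulators above, so Slc2a1, Slc2a3, Slc16a3, Pdk1 and Pfkfb3 are among the 13, and Slc2a1 is among the 5. Bnip3 was at 193, 51.4 and 58.6 CPM with hairpins 1, 2 and 5, against 72.2, 77.6 and 95.8 CPM in control replicates 1 to 3. It was 2.37-fold above the controls with hairpin 1 (edgeR adjusted p = 0.00137) and 1.59-fold below them with hairpin 2 (adjusted p = 0.0237), and hairpin 5 was below every control without passing. Ankrd37 was at 25.4, 7.41 and 11.8 CPM with the hairpins, against 16.2, 16.2 and 13.3 CPM in the controls. It had log2 fold changes of 0.73 ± 0.16 with hairpin 1 (edgeR adjusted p = 0.0154) and -1.05 ± 0.19 with hairpin 2 (adjusted p = 0.00807).

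With Slc2a1, Ldha and Eno1, these made 5 of 36 genes called higher with hairpin 1 and lower with hairpin 2, where 0.321% of all tested genes were. None was called higher with hairpin 2 and lower with hairpin 1 (0.396% of all tested genes), and none was called in opposite directions with hairpins 1 and 5 (0.0448% each way). Hairpin 1 and hairpin 2 share the same controls, so the values of each gene are given side by side above and no relation between the hairpins was tested. Kdm3a, a HIF-induced histone demethylase, was at 124, 71.0 and 99.6 CPM with hairpins 1, 2 and 5, against 114, 101 and 89.1 CPM in the controls. Hairpin 2 alone was below all controls and was called lower (-0.52 ± 0.13, edgeR adjusted p = 0.0321).

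P4ha1 and P4ha2, the prolyl hydroxylases that mature collagen, were both called higher with hairpin 1. P4ha2 was at 64.2, 27.2 and 19.1 CPM with hairpins 1, 2 and 5, against 20.4, 25.8 and 32.6 CPM in the controls (hairpin 1, 2.46-fold, edgeR adjusted p = 0.00775). P4ha1 was at 74.4, 51.2 and 59.1 CPM, against 53.1, 53.8 and 54.3 CPM (1.39-fold, edgeR adjusted p = 0.00899). Ndrg1, a hypoxia-induced growth regulator, and Mxi1, an antagonist of Myc, were also called higher with hairpin 1, by 1.79-fold and 1.27-fold (edgeR adjusted p = 0.00247 and 0.0245).

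Vegfa, the main angiogenic growth factor, was at 107, 66.4 and 43.9 CPM with hairpins 1, 2 and 5, against 37.8, 51.5 and 71.6 CPM in control replicates 1 to 3. Hairpin 1 was above every control, but the controls differed by nearly as much among themselves, and no hairpin was called (hairpin 1, log2 fold change 1.01 ± 0.34, edgeR adjusted p = 0.116). Higd1a, a mitochondrial protein, and Ddit4, an inhibitor of the growth kinase mTOR, were not called with any hairpin. Ddit4 was at 66.8, 44.4 and 34.2 CPM with the hairpins, against 42.4, 52.9 and 55.4 CPM in the controls.

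Averaged over the 36 genes, the log2 ratio to the control mean was 0.71, -0.08 and -0.23 in the libraries of hairpins 1, 2 and 5. The control libraries themselves lay at -0.10, 0.00 and 0.10, an SD of 0.0995. The hairpin 1 mean was far outside the control range, hairpin 5 lay below it, and hairpin 2 fell inside it. Over all 13390 tested genes the corresponding means were -0.03, 0.03 and -0.02 with the hairpins. By role, the hairpin 1 mean was 1.13 over the transporters, 1.05 for Vegfa alone, 0.89 over the collagen hydroxylases, 0.82 over the flux regulators, 0.74 over the mitochondrial genes and 0.72 over the 16 glycolytic enzymes. It was 0.53 over the HIF factors, 0.53 over the other hypoxia-induced genes and 0.13 over the oxygen sensors.

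**Figure D5:**
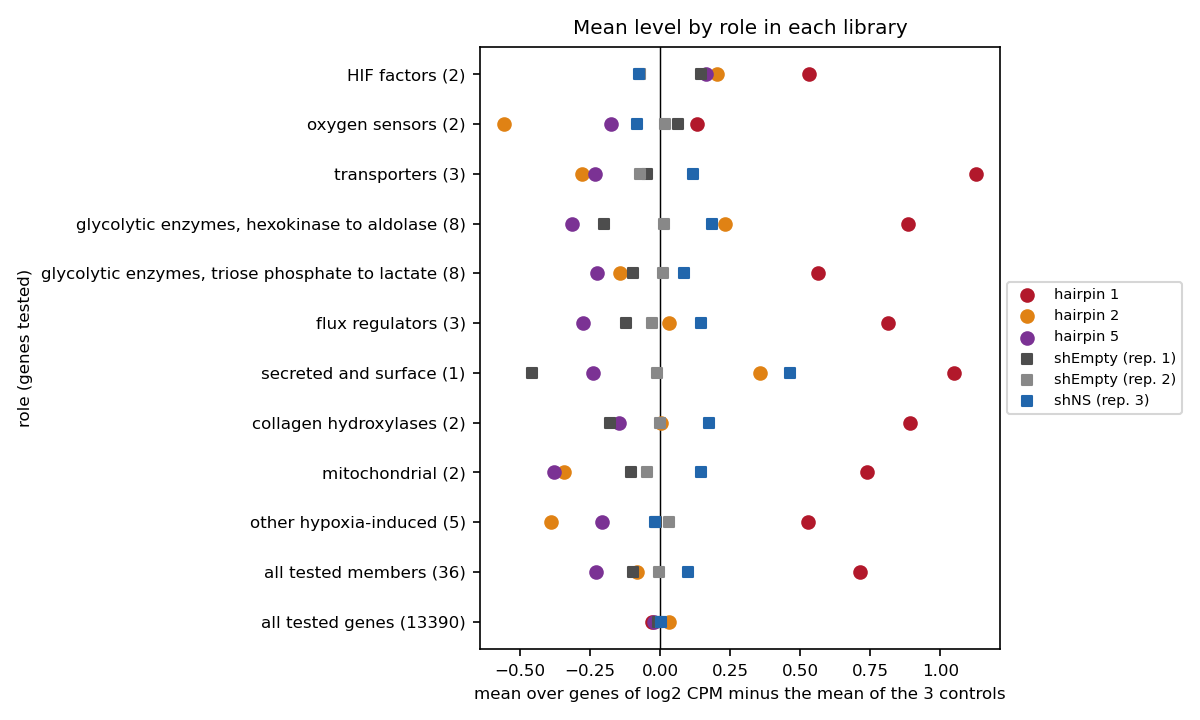
Mean over the tested genes of each role of log2 CPM minus the mean of the 3 controls (horizontal axis), by library; circles are hairpins 1, 2 and 5, squares are the 3 controls, and the number of genes stands beside each role. Hairpin 1 lies right of every control in each role, while over all tested genes all 6 libraries lie near 0.

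The control libraries also had an order within these genes. The shNS library was the highest of the 3 controls for 26 of 36 genes (38.5% of all tested genes), and control replicate 1, an shEmpty library, was the lowest for 23 (37.9%). With a single shNS library, the vector and the library cannot be told apart.

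Reads of several of these genes could also match near-identical copies. Reads without a unique alignment went to a summary row that was left out (9.0% to 9.7% of counts), so they were not split between copies. Of the 50-base stretches of Gapdh, Pgk1 and Bnip3, 90.4%, 68.0% and 62.4% occur in another annotated gene of GENCODE M21, and the levels of these genes are uncertain for that reason. Of the 18 tested members with no shared stretch, 11 were called higher with hairpin 1 (8.61% of all tested genes). With hairpin 2, 2 of these 18 were called lower, which is near the share of all tested genes (9.03%). Of the 18 with some, 13 were called higher with hairpin 1, and the remaining members called lower with hairpin 2 were all among them.

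The wider pathway was described with a list of 132 further genes of hypoxia and glucose metabolism, 106 of them tested. With hairpin 1, 19 were called higher (8.61% of all tested genes) and 9 lower (9.32%), which is 26.4% of the list, against 17.9% of all tested genes. Hairpin 2 gave 6 higher (8.48%) and 10 lower (9.03%), 15.1% of the list, against 17.5% of all tested genes. Hairpin 5 gave 1 higher and 1 lower, 1.89% of the list, against 2.75%. Among hairpins 27 differed, 25.5% of the list, against 14% of all tested genes. With the hairpins pooled, 0 were called, where 1.25% of all tested genes were. At an unadjusted p under 0.05 there were 15, where 2201 of all 13390 tested genes passed that level with RLE normalization. DESeq2 called 2, where it called 730 of all 13390. The median log2 fold change with hairpin 1 was 0.03, against 0.64 for the 36 members. Hif1an, Vhl, Arnt and Egln2, some of the HIF pathway components on the list, were not called with any hairpin. The other components are not described here.

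Plod2, a collagen lysyl hydroxylase, was at 33.6, 11.2 and 12.5 CPM with hairpins 1, 2 and 5, against 11.3, 11.0 and 14.2 CPM in control replicates 1 to 3, and was called with hairpin 1 (edgeR adjusted p = 0.00122). Ak4, a mitochondrial adenylate kinase, was at 81.4, 17.0 and 26.8 CPM, against 43.4, 47.1 and 52.6 CPM. It was called higher with hairpin 1 and lower with hairpins 2 and 5 (edgeR adjusted p = 0.00354, 0.00061 and 0.0193). Not all hypoxia-linked genes were higher with hairpin 1. Pgf, the placental growth factor of the Vegf family, was at 20.4, 39.9 and 42.1 CPM, against 43.9, 52.0 and 56.1 CPM, and was called lower with hairpin 1 (edgeR adjusted p = 0.00174). Cxcr4, a chemokine receptor, was at 11.5, 8.69 and 17.7 CPM, against 20.6, 22.5 and 20.1 CPM, and was called lower with hairpins 1 and 2 (edgeR adjusted p = 0.00725 and 0.00176).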

How the data were processed

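Poly(A) RNA of 6 preSC libraries was sequenced, and the authors deposited raw read counts per gene symbol, 1 table per library, not normalized. Per the submitters' processing notes, the tools were HTSeq 0.6.1, TopHat2 2.0.12 and bcl2fastq 1.8.2, and the build was mm9. Neither annotation nor strand setting is stated. The 5 summary rows of each table (24.8% to 28.9% of counts) were left out.

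Counts were tested in R 4.3.3 with edgeR 4.0.16 (TMM, filterByExpr with a minimum count of 10, robust quasi-likelihood test), with Benjamini-Hochberg adjustment over all 13390 tested genes and a threshold of 0.05. The 2-group fit set 3 shCrebbp against 3 control libraries. The 4-group fit gave each hairpin its own coefficient and had 2 residual degrees of freedom, from the controls. SE is the size of the log2 fold change divided by the square root of F, and log2 CPM used a prior count of 2. RPKM used exon lengths of GENCODE M21 (GRCm38). No file coordinates are given, since the reference is of another build. The fits were tested on simulated data. Within groups, no 2 libraries agreed within sampling noise (chi-square divided by its degrees of freedom, 4.25 to 29.9), so none was merged. No molecular identifiers are named, so reads may include PCR copies and are not all independent molecules.

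The 38 members and the wider list were chosen with earlier results of these data known. The text names all members, Crebbp, Ep300 and, of the wider list, up to 3 called genes per direction and hairpin. From that list it also names the 3 genes of smallest p where none was called with the hairpins pooled. Some genes are named outside this rule, among them Hif1an, Vhl, Arnt and Egln2. Alternatives were DESeq2 1.42.0, RLE normalization, other filters, non-robust estimation, medians in place of means, and leaving out each library.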

Additional observations from a re-analysis of the deposited data

Results flagged for a closer look

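The 3 hairpin libraries, each set against the same 3 controls, differed in 25 of the 36 tested genes by edgeR's test of equality of the hairpin coefficients (adjusted p from 0.00091 for Ldha to 0.0466 for Eno2, with 14% of all tested genes called). The size given here is the highest minus the lowest of the 3 hairpin log2 fold changes. Hairpin 1 was the highest in all of them except Egln3, where hairpin 5 was, and Eno2, where hairpin 2 was. Among enzymes the difference was 4.82 for Hk2, 1.78 for Ldha, 1.68 for Eno1, 1.14 for Pgk1, 0.97 for Tpi1, 0.87 for Pfkl, 0.63 for Gapdh, 0.49 for Pkm2 and 0.45 for Eno2. Transporters differed by 1.79 for Slc16a3, 1.67 for Slc2a3 and 1.24 for Slc2a1, and flux regulators by 1.92 for Pfkfb3 and 0.94 for Pdk1. Among the remaining genes it was 1.91 for Bnip3, 1.77 for Ankrd37, 1.75 for P4ha2, 1.02 for Ndrg1, 0.97 for Ddit4, 0.82 for Egln3, 0.81 for Kdm3a, 0.69 for Egln1, 0.54 for P4ha1, 0.51 for Higd1a and 0.41 for Mxi1. Without the hairpin 1 library, 2 of 36 genes differed between hairpins 2 and 5 (Hk2 and Slc2a1), where 2.96% of all tested genes did.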

How the results depend on the processing

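No paired analysis was possible because the labels number only 1 control library (a second shEmpty), the other control numbers being names in accession order, and the numbers of the knockdown libraries are those of their hairpins. The mean log2 ratio over the 36 genes moved by less than the control SD under each setting tried. DESeq2 lost 6 of the 24 calls with hairpin 1 and 2 of the 10 with hairpin 2. It called 1 gene with the hairpins pooled (Pfkm), 2 of the wider list (Flt1 and Bhlhe41) and 1 with hairpin 5 (Tpi1), and no filter gave 2 with hairpin 5 (Tpi1 and Ddit4) while losing 2 with hairpin 1 (Gpi1 and Pfkfb3) and gaining 1 (Ddit4). Over single omissions, called genes numbered 13 to 30 with hairpin 1, 4 to 15 with hairpin 2, 0 to 15 with hairpin 5, 2 to 31 among hairpins, 0 to 1 with the hairpins pooled and 0 to 3 in the wider list pooled. The share of all tested genes called moved with these counts, over 6.79% to 31.1% with hairpin 1, 6.87% to 33.7% with hairpin 2, 0.369% to 14.3% with hairpin 5 and 2.96% to 38.9% among hairpins. The hairpin 1 calls without control replicate 3 included Egln3, lower. The pooled call, Eno1 lower, appeared without hairpin 1, as did 2 of the wider list (Ak4 and Cited1), and 3 (Cxcr4, Klf10 and Ldhb) appeared without hairpin 5. An omitted control leaves the 4-group fit with 1 residual degree of freedom. Each hairpin had 1 library, so its differences have no replicate check, and at this depth Adm and Car9 could not be compared.

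With the hairpins pooled, the direction of 27 uncalled genes reversed in at least 1 omission, 20 of them without hairpin 1. Their log2 fold changes ranged over omissions as follows: Hif1a -0.13 to 0.079, Pfkp -0.30 to 0.29, Aldoa -0.31 to 0.36, Eno1 -0.68 to 0.32, Ankrd37 -0.67 to 0.28, Kdm3a -0.25 to 0.14, Slc2a1 -0.35 to 0.28, Pgam1 -0.070 to 0.0079, Higd1a -0.15 to 0.096, Ddit4 -0.35 to 0.14, Egln1 -0.21 to 0.16, Slc2a3 -0.29 to 0.69, Slc16a3 -0.13 to 0.98, Gpi1 -0.091 to 0.29, Pfkl -0.055 to 0.39, Tpi1 -0.26 to 0.26, Pgk1 -0.28 to 0.39, Pkm2 -0.063 to 0.18, Ldha -0.38 to 0.72, Pdk1 -0.0092 to 0.50, Pfkfb3 -0.30 to 0.79, Pfkfb4 -0.066 to 0.14, P4ha2 -0.18 to 0.79, Bnip3 -0.57 to 0.62, Ndrg1 -0.12 to 0.45, Mxi1 -0.062 to 0.15 and Eno2 -0.020 to 0.22. For single hairpins, 8 uncalled values reversed when a control was left out. They were Pgam1 with hairpin 1 (-0.022 to 0.055), Kdm3a with hairpin 5 (-0.11 to 0.063) and, with hairpin 2, P4ha2 (-0.098 to 0.24), Slc16a3 (-0.17 to 0.059), Gpi1 (-0.13 to 0.088), Aldoa (-0.28 to 0.025), Pfkfb3 (-0.21 to 0.18) and Higd1a (-0.044 to 0.0039). No called value of a single hairpin reversed.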

Other observations

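Further genes of the wider list were called with 1 or 2 of the hairpins. Of these, Rbpj, Brp44 and Tkt lay outside the control range with hairpin 5 as well, without a call there. Narf, which binds prelamin A, was at 67.4, 42.0 and 41.9 CPM with hairpins 1, 2 and 5, against 41.8, 41.5 and 42.6 CPM in control replicates 1 to 3, and Rbpj, the transcription factor of the Notch pathway, was at 193, 111.8 and 150.5 CPM, against 131, 120.2 and 123.2 CPM. Both were called higher with hairpin 1 (edgeR adjusted p = 0.00223 and 0.00241). Brp44, a subunit of the mitochondrial pyruvate carrier, was at 85.5, 132.4 and 117.5 CPM, against 123.3, 123.9 and 137.2 CPM, and was called lower with hairpin 1 (edgeR adjusted p = 0.0062).

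With hairpin 2, Cited1, a partner of Crebbp and Ep300, was called higher at 47.8 CPM, against 29.2, 29.2 and 30.4 CPM in the controls (edgeR adjusted p = 0.00291). Stc2, a secreted glycoprotein, was also called higher with hairpin 2, at 3.13 CPM, against 0.613, 0.732 and 1.24 CPM (edgeR adjusted p = 0.0144). Tkt, an enzyme of the pentose phosphate pathway, was called higher with hairpins 1 and 2 at 164.5 and 165.3 CPM, against 123.9, 127.7 and 128.9 CPM (edgeR adjusted p = 0.0147 and 0.014).

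Among genes of the wider list with the smallest pooled p, Flt1, a receptor of Vegfa, was at 11.98, 13.2 and 19.1 CPM with hairpins 1, 2 and 5, against 9.20, 8.90 and 6.86 CPM in the controls. Every hairpin exceeded every control, and hairpins 2 and 5 were called (edgeR adjusted p = 0.0486 and 0.0174). Bhlhe41, a hypoxia-induced repressor, was at 32.5, 24.3 and 34.5 CPM, against 48.6, 47.6 and 41.8 CPM, and G6pdx, the first enzyme of the pentose phosphate pathway, was at 24.0, 27.3 and 26.4 CPM, against 33.4, 36.3 and 30.2 CPM. For both, every hairpin lay below every control, and neither passed with the hairpins pooled (edgeR adjusted p = 0.0918 and 0.157).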
